A study of Peromyscus californicus with 17 samples.

Results

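The genes of 10 antioxidant enzymes were examined in the lung transcriptome of male *Peromyscus californicus*, a monogamous deer mouse: the catalase gene Cat, the superoxide dismutase genes Sod1, Sod2 and Sod3, the glutathione peroxidase genes Gpx1, Gpx3 and Gpx4, and the genes Hmox1, Nqo1 and Blvrb. They were chosen by their symbols and are 10 of the 27786 genes in the table. RNA came from the lungs of 17 males of the IS stock, genetically diverse and 12 to 15 months old, with 1 library per animal. The 6 bonded males (B1 to B6) had been paired for about 4 months. The 6 bond-disrupted males (BD1 to BD6) were paired for as long and then kept apart from the partner until lungs were taken 1 week later, on day 7. The 5 virgin males (V2 to V6) were of similar age and lived in groups of 2 or 3, so that mating history and housing cannot be told apart in this group. Animals that carry the same number are siblings or, for 2 of the virgins with V3 among them, cousins of their counterparts.

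Reactive oxygen species form when electrons leak to oxygen, and the lung meets more oxygen than other organs do. Superoxide dismutases turn superoxide into hydrogen peroxide, which catalase and the glutathione peroxidases then remove. Haem oxygenase, biliverdin reductases and quinone reductases limit the formation of further oxidants, and NRF2, a transcription factor released when the cell senses oxidants, drives many genes of this system.

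The deposited unit was FPKM, fragments per kilobase of gene, scaled to library size. Each of the 17 columns was found to be divided by the length of another gene, the one that stands 1 row higher for the first column and 1 row further up for each next column. Lengths and depths were therefore solved from the values, and FPKM was recomputed with each gene's own length, which was possible for all 10 genes in all 17 animals. With the length of the other gene, 170 of 170 values lay within 0.03 of a whole step, the step being 0.5 fragments, and with the own length 8 of 170 did. The lengths had been solved by this same criterion, so these counts describe the fit and are no independent check of it. Cat in B2 illustrates the size of the effect: it was deposited as 410 FPKM after division by 534 bases, and with its own 2568 bases it is 85.3 FPKM. The ratio of the highest to the lowest animal fell from 181 to 2.00 for Hmox1, from 133 to 2.15 for Nqo1 and from 8.75 to 1.62 for Blvrb. All FPKM below are with own lengths unless said otherwise.

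**Figure D1:**
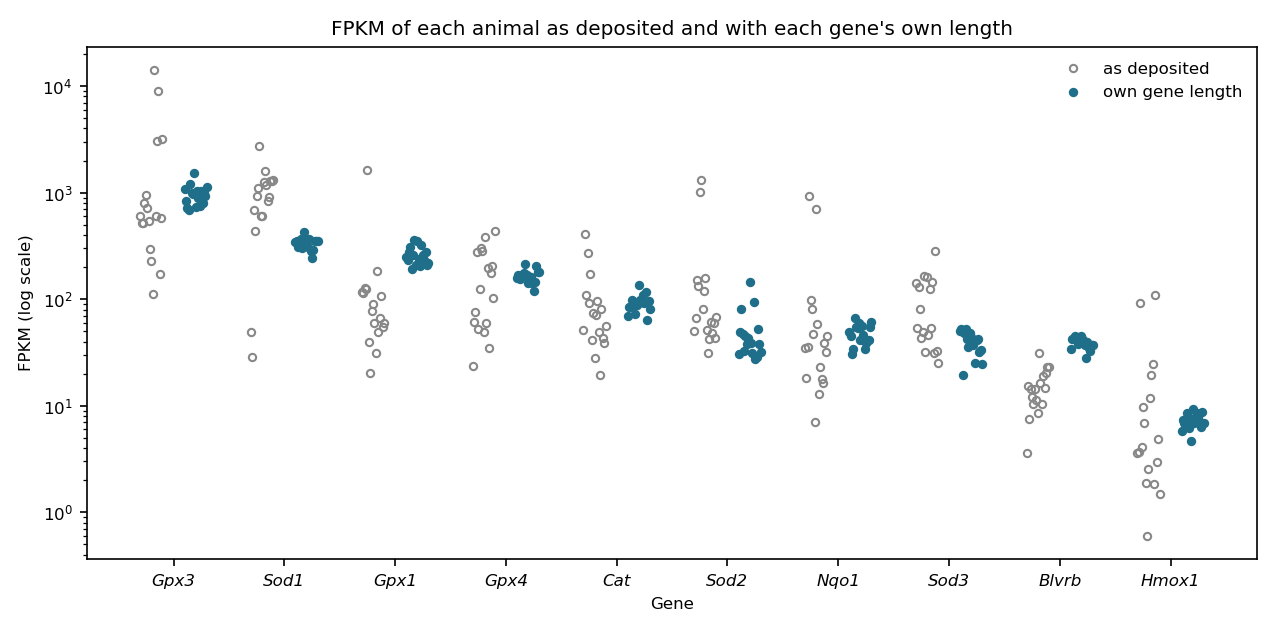
FPKM of the 10 genes on a log scale, 1 point per animal, as deposited (open grey circles) and recomputed with each gene's own length (filled blue circles), with genes in order of their mean level. The deposited values of Hmox1 span a ratio of 181 between animals and the recomputed ones 2.00.

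Depth, as solved from the values, was 15.4 to 34.1 per library in units of 1000000 fragments, and it is known only up to a factor of 2 because the smallest step can be read as 1 fragment or as 0.5 fragments. Counts per gene and animal ran from 156 to 391 fragments for Hmox1, the lowest gene, and from 16822 to 53600 for Gpx3, the highest. The counting error alone was thus at most 8.01% for Hmox1 and 0.771% for Gpx3, and errors of this kind do not cover the spread between animals. The lung's own markers were present: the airway gene Scgb1a1 and the surfactant genes Sftpc and Sftpb led a list of 10 alveolar and airway genes, of which 8 had recovered values, with a summed level of 76825 to 152469 FPKM in bonded, 94258 to 150981 in bond-disrupted and 76497 to 196308 in virgin animals. Heart muscle markers, 8 of 10 with recovered values, summed to 53.0 to 547 FPKM in bonded, 92.4 to 306 in bond-disrupted and 128 to 407 in virgin animals, with the lowest sums in B3 and BD3. The recovered markers of neutrophils (6 of 11), liver (5 of 6) and kidney tubule (5 of 6) summed to no more than 39.3 FPKM in any animal. S100a8 and S100a9 were not among the recovered neutrophil markers. Those of red cells (9 of 15), with globins not among them and Gypc the highest at a mean of 26.1 FPKM, summed to 26.9 to 65.2 FPKM. Those of endothelium (5 of 6) summed to 515 to 904 FPKM. In whole lung, fewer cells of a type and less RNA per cell cannot be told apart.

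Gpx3, which encodes the secreted glutathione peroxidase of plasma, was the most abundant of the 10 transcripts at 962 ± 212 FPKM (SD, n = 17 animals). It stood at the 99.9th percentile of the 14474 genes tested. Sod1, the copper and zinc enzyme of the cytosol, followed with 334 ± 42.5 FPKM. Gpx1, the cytosolic glutathione peroxidase, had 259 ± 50.6 FPKM and Gpx4, which reduces lipid peroxides in membranes, had 165 ± 23.2 FPKM. Cat, the peroxisomal enzyme that splits hydrogen peroxide, had 91.7 ± 17.5 FPKM. Sod2, the manganese enzyme of mitochondria, had 50.3 ± 30.3 FPKM, Nqo1, which reduces quinones, 47.6 ± 10.6 FPKM, and Sod3, the secreted dismutase held in the matrix around cells, 39.5 ± 10.1 FPKM. Blvrb, a flavin and biliverdin reductase, had 39.0 ± 4.77 FPKM. Hmox1, the inducible enzyme that breaks down haem, was lowest at 7.31 ± 1.18 FPKM and was the only one of the 10 near the middle of all tested genes, at the 46.3rd percentile.

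Neighbours in this order were compared within animals, by the log2 ratio of their FPKM in a two-sided exact sign-flip permutation test over the 17 animals, adjusted over the 9 pairs. In 7 pairs the higher gene of the order was set apart from the next. Gpx3 exceeded Sod1 2.84-fold on average and in 17 of 17 animals (exact p = 1.53e-05, the smallest the test can give, adjusted p = 3.43e-05), and Blvrb exceeded Hmox1 5.37-fold, also in 17 of 17. Sod1 exceeded Gpx1 1.3-fold, in 14 of 17 animals (exact permutation p = 0.000443, adjusted p = 0.000664). Nqo1 exceeded Sod3 1.22-fold, in 11 of 17 animals (exact permutation p = 0.0149, adjusted p = 0.0191). Sod2 and Nqo1 were not separated, since Sod2 was the higher in 6 of 17 animals (exact permutation p = 0.801, adjusted p = 0.828), and neither were Sod3 and Blvrb, with Sod3 higher in 10 of 17 (exact permutation p = 0.828, adjusted p = 0.828).

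Within the dismutases, Sod1 made up 78.9 ± 5.44% (SD, n = 17) of the summed FPKM of Sod1, Sod2 and Sod3. Its share was lowest in BD3, at 63.4%, where Sod2 took 28.1%. Within the 3 glutathione peroxidases, Gpx3 made up 68.8 ± 6.06% and ranged from 58.9% in B4 to 80.1% in BD2, whereas Gpx1 made up 19.1 ± 5.06% and Gpx4 12.05 ± 1.74%.

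The first comparison asked whether a week apart from the partner went along with a change in these transcripts, and the others set virgins against each paired group. The 3 comparisons share their groups and are not independent. They were made with limma on log2(FPKM + 1), with all 17 animals in one fit, and a gene counted as called where its adjusted p lay under 0.1 and its fold change reached 2. Across the 14474 genes tested, 0 (0.0%) were called between bond-disrupted and bonded, 0 (0.0%) between virgin and bonded and 0 (0.0%) between virgin and bond-disrupted animals. The limma fit to recovered fragments with voom weights also called 0 in each. The counts at an unadjusted p under 0.05 were 872 genes (6.02%), 528 (3.65%) and 617 (4.26%).

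None of the 10 antioxidant genes was called in any of the 3 comparisons by limma or by voom. At an unadjusted p under 0.05 there was 1 of 10 between bond-disrupted and bonded lungs, Cat, and 0 of 10 in each of the other comparisons. The log2 differences of bond-disrupted minus bonded lungs ran from -0.15 for Sod3 to 0.29 for Cat, with a median of 0.07 beside 0.01 over all tested genes. Those of virgin minus bonded ran from -0.37 for Sod2 to 0.11 for Gpx3 (median -0.06, all genes 0.01), and those of virgin minus bond-disrupted from -0.65 for Sod2 to 0.03 for Gpx3 (median -0.12, all genes 0.00). The groups overlapped for every one of the 10 genes in every comparison. The share of all tested genes that overlap was not counted, so this does not set the 10 genes apart from others. The 95% intervals lay within a 2-fold change either way for 10 of 10 genes in the first comparison and for 9 of 10 in each of the others, Sod2 being the exception. In the first comparison the upper limit of Sod2 was 0.9993 on the log2 scale, only just inside, and with a pseudocount of 0.1 it was 1.03.

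**Figure D2:**
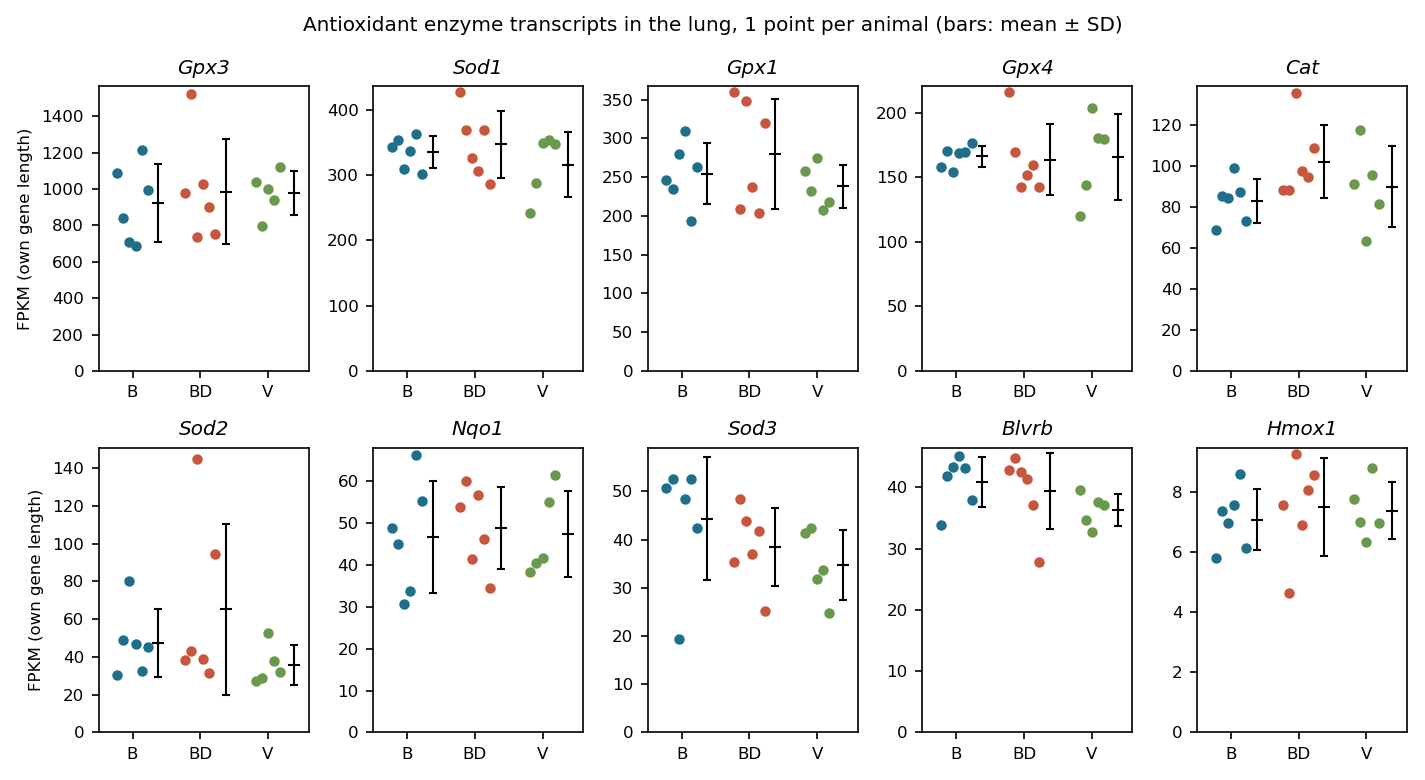
FPKM (own gene length) of each animal in bonded (B, n = 6), bond-disrupted (BD, n = 6) and virgin (V, n = 5) males, in 1 panel per gene with axes that start at 0. Black bars give the mean and SD of the group. The groups overlap in every panel, and Sod2 shows 2 bond-disrupted animals and 1 bonded animal far above the rest.

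Catalase had the only unadjusted p under 0.05. In bonded animals Cat ranged from 68.8 FPKM (B1) to 98.7 FPKM (B4), with a median of 84.8. In bond-disrupted animals it ranged from 88.1 FPKM (BD2) to 135 FPKM (BD3), with a median of 95.9. Virgins had 91.3 FPKM in V2, 117 in V3, 63.5 in V4, 95.5 in V5 and 81.4 in V6. The lowest bond-disrupted animal thus lay above 5 of the 6 bonded animals and below B4, and the virgins spread over both ranges. The means were 102 ± 18.0 FPKM in bond-disrupted and 82.8 ± 10.7 FPKM in bonded animals (SD, n = 6 each). The log2 difference was 0.29 (SE 0.14, 95% interval 0.00 to 0.58, limma adjusted p = 0.826). The two-sided exact permutation test of these groups alone gave p = 0.0281. It regroups the animals freely and ignores the sibling pairs, in which Cat was higher in the bond-disrupted animal in 5 of 6 and lower in 1. Over the limma fits that each drop 1 animal, the log2 difference ran from 0.21 (without BD3) to 0.34 (without B4), and in 12 of 17 such fits its unadjusted p was no longer under 0.05. It stayed under in the 5 fits without B4, BD1, BD2, V3 or V4.

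Of the dismutases, Sod2 and Sod3 had the widest range between animals of the 10 genes, with ratios of the highest to the lowest animal of 5.32 and 2.72, and Sod1 one of the narrowest, 1.77. In bonded animals Sod2 ranged from 30.5 FPKM (B1) to 80.2 FPKM (B3), with a median of 46.2. In bond-disrupted animals it ranged from 31.6 FPKM (BD5) to 145 FPKM (BD3), with a median of 41.0, and BD6 had 94.8 FPKM. Virgins had 27.2 FPKM in V2, 28.8 in V3, 52.8 in V4, 38.03 in V5 and 32.0 in V6. The other 4 bond-disrupted animals did not exceed 43.3 FPKM, so the higher mean of that group, 65.3 ± 45.3 FPKM (SD, n = 6) beside 47.4 ± 17.9 in bonded and 35.8 ± 10.4 in virgin animals, rested on BD3 and BD6. The log2 difference of virgin minus bond-disrupted animals was -0.65 (SE 0.35, 95% interval -1.40 to 0.09, limma adjusted p = 0.943). Fitted with a replicate block for the number of the animal, it was -0.76 (95% interval -1.46 to -0.06, limma adjusted p = 0.979), and its unadjusted p then fell under 0.05, as did those of 3.86% of all genes in that fit. The SD of Sod2 between animals of the same group was 0.63 on the log2 scale, at the 95.8th percentile of all tested genes, whose median was 0.20.

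Macrophage markers were measured beside Cat and Sod2, of which 9 of 14 listed genes had recovered values, led by Marco, Fabp4 and Csf1r. Their summed level was 155 to 377 FPKM in bonded, 131 to 481 in bond-disrupted and 142 to 307 in virgin animals, and no recovered marker was at 0 in any animal. The median sum was 262 FPKM in bonded, 304 in bond-disrupted and 258 in virgin animals, and in bond-disrupted minus bonded the 8 tested markers had a median log2 difference of 0.18 (all genes 0.01), with 0 of 8 at an unadjusted p under 0.05 (all genes 6.02%). The lowest sums of the bonded and bond-disrupted groups fell on B1 (155 FPKM) and BD2 (131 FPKM), which also had the least Cat of their groups, and the highest sum of each group fell on B4, BD3 and V3, which had the most Cat. Among virgins the lowest sum was that of V6, at 142 FPKM, and the least Cat that of V4. The sum was 481 FPKM in BD3, the highest of all 17, 338 in B3 and 332 in BD6, the 3 animals with the most Sod2. B4 had the second highest sum, 377 FPKM, with Sod2 at 46.9 FPKM, and BD1 had 327 FPKM with Sod2 at 38.3 FPKM. The 5 recovered kidney tubule markers, nearly all of whose sum is Lrp2, were also highest in the animals with the most Sod2, at 18.3 FPKM in BD6, 11.7 in BD3 and 10.4 in B3, and did not exceed 9.45 FPKM in the others. The part of these cells in the difference of Cat and the spread of Sod2 was not tested.

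Sod3 was low in a few animals. In bonded animals it ranged from 19.3 FPKM (B3) to 52.6 FPKM (B2), with a median of 49.7, and in bond-disrupted animals from 25.1 FPKM (BD6) to 48.4 FPKM (BD2), with a median of 39.4. Virgins had 41.3 FPKM in V2, 42.4 in V3, 31.7 in V4, 33.7 in V5 and 24.8 in V6. The 5 bonded animals other than B3 lay between 42.5 and 52.6 FPKM. The lowest of them, B6 at 42.47 FPKM, all but met the highest virgin, V3 at 42.38 FPKM, beside a counting error of 1.27 to 1.79% for Sod3. B3 was singled out by these same Sod3 values, so the results without it are a description only. The log2 difference of virgin minus bonded animals was -0.30 (SE 0.23, 95% interval -0.79 to 0.20, limma adjusted p = 1.0), and without B3 it was -0.52 (SE 0.16, 95% interval -0.86 to -0.17, limma adjusted p = 1.0). That of bond-disrupted minus bonded moved from -0.15 to -0.37 without B3 (SE 0.16, 95% interval -0.71 to -0.04, limma adjusted p = 0.758). Without B3 the 1 gene of 10 at an unadjusted p under 0.05 in that comparison was thus Sod3, lower in bond-disrupted lungs, and no longer Cat, beside 6.46% of all genes in the same fit. B3 was also the deepest library, at 34.1 in units of 1000000 fragments.

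Smooth muscle and matrix markers, all 8 of 8 with recovered values and none at 0 in any animal, had a summed level of 704 to 1473 FPKM in bonded, 471 to 1223 in bond-disrupted and 759 to 1055 in virgin animals, with medians of 1109, 885 and 954. In bond-disrupted minus bonded their median log2 difference was -0.28 (all genes 0.01), the same direction as the difference of Sod3. At an unadjusted p under 0.05, 2 of 8 were lower and 0 higher, and 0 of 8 were called. Over all 14474 genes tested, 6.02% were under that p (421 higher and 451 lower), and 0.0% were called. The lowest sums of the bonded and the bond-disrupted group fell on B3 (704 FPKM) and BD6 (471 FPKM), which also had the least Sod3 of their groups. Among virgins this was not so, as V6 had the least Sod3 and a sum of 1055 FPKM, and V3 the most Sod3 and the lowest sum. The part of these cells in the level of Sod3 was not tested.

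Sod1 was steadier. It ranged from 301 FPKM (B6) to 364 (B5) in bonded animals, with a median of 340.5, and from 286 (BD6) to 427 (BD1) in bond-disrupted animals, with a median of 348. Virgins had 241 FPKM in V2, 289 in V3, 349 in V4, 355 in V5 and 348 in V6. No log2 difference of Sod1 between groups exceeded 0.14 in size, and the 95% interval of bond-disrupted minus bonded was -0.19 to 0.27.

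The glutathione peroxidases did not separate the groups either. Gpx3 ranged from 684 FPKM (B4) to 1215 (B5) in bonded animals, with a median of 917, and from 735 (BD3) to 1524 (BD2) in bond-disrupted animals, with a median of 939. Virgins had 1038 FPKM in V2, 796 in V3, 1002 in V4, 939.9 in V5 and 1122 in V6. Apart from BD2, the bond-disrupted animals lay within the bonded range. The log2 difference of bond-disrupted minus bonded was 0.08 (SE 0.18, 95% interval -0.29 to 0.45, limma adjusted p = 0.963).

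Gpx1 spread widely among bond-disrupted animals, with 359 FPKM in BD1, 348.5 in BD3 and 320.1 in BD6 and with 209 in BD2, 238 in BD4 and 204 in BD5. Bonded animals ranged from 194 FPKM (B5) to 309 (B4), with a median of 255, and virgins had 257 in V2, 232 in V3, 275 in V4, 208 in V5 and 217 in V6. BD1, BD3 and BD6 lay above every bonded and virgin animal and the other 3 within the bonded range, and the log2 difference from bonded animals was 0.11 (SE 0.15, 95% interval -0.21 to 0.43, limma adjusted p = 0.935). Gpx4 was even in bonded animals, from 154 FPKM (B3) to 176 (B6). Its values ran from 143 (BD6) to 216 FPKM (BD1) in bond-disrupted animals and were 120.3 in V2, 144 in V3, 204 in V4, 181 in V5 and 179.9 in V6. The means of the 3 groups were 166 ± 8.46, 164 ± 27.6 and 166 ± 33.1 FPKM (SD, n = 6, 6 and 5).

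The haem and quinone enzymes had close mean levels in the 3 groups, and the 95% intervals of their log2 differences reached from -0.45 to 0.48 over the 3 comparisons. Hmox1 averaged 7.07 ± 1.02 FPKM in bonded, 7.50 ± 1.62 in bond-disrupted and 7.37 ± 0.946 in virgin animals (SD). Its lowest value, 4.63 FPKM, was in BD2 and its highest, 9.25 FPKM, in BD3. Nqo1 averaged 46.6 ± 13.3, 48.7 ± 9.78 and 47.3 ± 10.2 FPKM in the same order, and ranged from 30.7 FPKM in B3 to 66.2 in B5, both bonded. Blvrb averaged 40.9 ± 4.14, 39.4 ± 6.20 and 36.4 ± 2.66 FPKM. Its lowest value, 27.9 FPKM, was in BD6, and without BD6 the log2 difference of virgin minus bond-disrupted animals went from -0.10 to -0.19 (limma adjusted p = 0.928). Blvrb was lower in the virgin than in the bonded relative of the same number in 5 of 5 pairs, and Sod3 lower in the virgin than in the bond-disrupted relative in 5 of 5. They were 1 of 10 genes each with all pairs of one sign, beside 7.68% and 4.51% of all tested genes, and between bond-disrupted and bonded relatives 0 of 10 had all 6 pairs of one sign (4.19% of all genes).

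**Figure D3:**
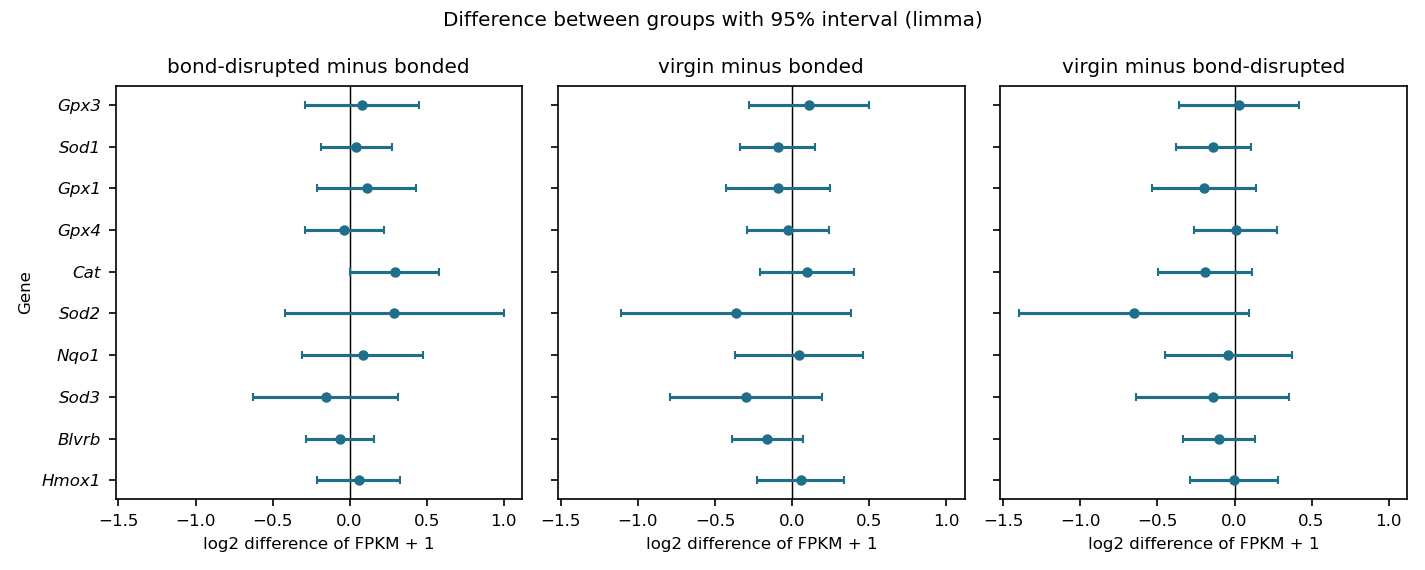
Log2 difference of FPKM + 1 between groups for the 10 genes, with 95% intervals from limma, in 1 panel per comparison. The interval of Cat in bond-disrupted minus bonded animals starts at 0.00, and every other interval holds 0; the intervals of Sod2 are the widest.

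As deposited, 19 of the 30 log2 differences (10 genes in 3 comparisons) had the opposite sign, 9 of 10 in bond-disrupted minus bonded, 6 of 10 in virgin minus bonded and 4 of 10 in virgin minus bond-disrupted. In the deposited table, Cat averaged 185 ± 135 FPKM in bonded, 59.8 ± 24.7 in bond-disrupted and 47.6 ± 22.6 in virgin animals (SD), a log2 difference of bond-disrupted minus bonded of -1.39 (limma adjusted p = 0.507) where own lengths gave 0.29. For Sod2 the same difference was -1.61 as deposited and 0.29 with own lengths, and for Sod1, with the same sign in both, it was 2.06 and 0.04. Between virgin and bonded animals the deposited difference was -1.75 for Cat against 0.10, and 0.96 for Blvrb against -0.16. As deposited, 3 of 10 genes had an unadjusted p under 0.05 in bond-disrupted minus bonded (all genes 6.82%), 4 of 10 in virgin minus bonded (all genes 8.36%) and 0 of 10 in virgin minus bond-disrupted (all genes 6.76%), and 0 of 10 were called in any, where 0.215%, 0.607% and 0.188% of all genes were. The SD within groups was 0.57 to 1.90 on the log2 scale as deposited and 0.18 to 0.63 with own lengths.

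Correlations between the 10 genes from animal to animal were taken over the 17 animals with the group means removed, for all 45 pairs, with permutations within groups. Of these, 2 passed at an adjusted p under 0.05, both positive, and r ran from -0.61 to 0.86 over all pairs. Gpx3 and Nqo1 had Pearson r = 0.80 (permutation p = 0.00037, adjusted p = 0.0128) and Spearman rho = 0.82 (permutation p = 0.00032, adjusted p = 0.0144), and r = 0.81 without BD2 and B4, the animals farthest out in Gpx3. Sod1 and Gpx4 had r = 0.86 (permutation p = 0.00057, adjusted p = 0.0128) and rho = 0.83 (permutation p = 0.00165, adjusted p = 0.0247), and r = 0.78 without V2 and BD6. Leaving out 1 animal at a time kept r of Gpx3 and Nqo1 between 0.76 and 0.85, and the adjusted p at 0.0315 or lower. For Sod1 and Gpx4 r stayed between 0.79 and 0.92, with an adjusted p of 0.0731 without V2 and 0.065 without V3. All values of an animal come from 1 library, and the family ties between animals were not modelled.

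The rank correlation of Cat and Hmox1 also passed, with rho = 0.77 (permutation p = 0.00093, adjusted p = 0.0209), but their Pearson r of 0.60 did not (permutation p = 0.0146, adjusted p = 0.132), and it was 0.50 without V4 and BD3. The most negative pairs were Gpx1 with Nqo1 (r = -0.61), Cat with Gpx3 (r = -0.61) and Gpx1 with Gpx3 (r = -0.60), each with a permutation adjusted p from 0.132 to 0.168. Without the 2 animals farthest out in the first gene of the pair, these were -0.82, -0.64 and -0.78. Some negative pairs passed when 1 animal was left out. Without B5, Gpx3 with Hmox1 had r = -0.83 and Cat with Gpx3 r = -0.70 (permutation adjusted p = 0.028 each), and without BD1, Gpx1 with Nqo1 had r = -0.745 (permutation adjusted p = 0.0496). With all 17 animals r of Gpx3 and Hmox1 was -0.59 (permutation adjusted p = 0.181), and -0.31 without BD2 and B4. As single animals, BD2 had the most Gpx3, Nqo1, Sod3 and Blvrb and the least Cat and Hmox1 of its group. BD3 had the most Cat, Sod2 and Hmox1 and the least Gpx3. BD6 was lowest of its group in 5 of 10 genes, which were Sod1, Sod3, Gpx4, Nqo1 and Blvrb, and V2 was lowest of the virgins in 4.

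**Figure D4:**
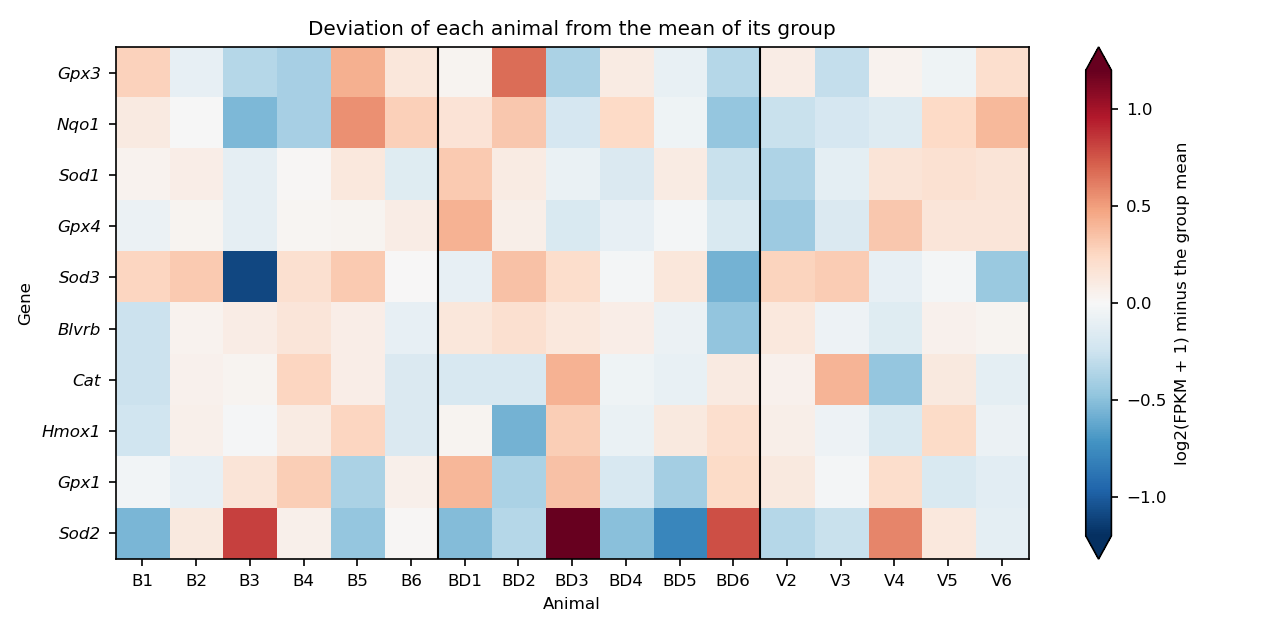
Log2(FPKM + 1) of the 10 genes in each of the 17 animals minus the mean of its group, on a colour scale from blue (below) to red (above), with lines between the groups. Sod2 is highest in BD3, BD6 and B3, Sod3 lowest in B3, and BD2 is high in Gpx3 and Nqo1 and low in Hmox1.

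**Figure D5:**
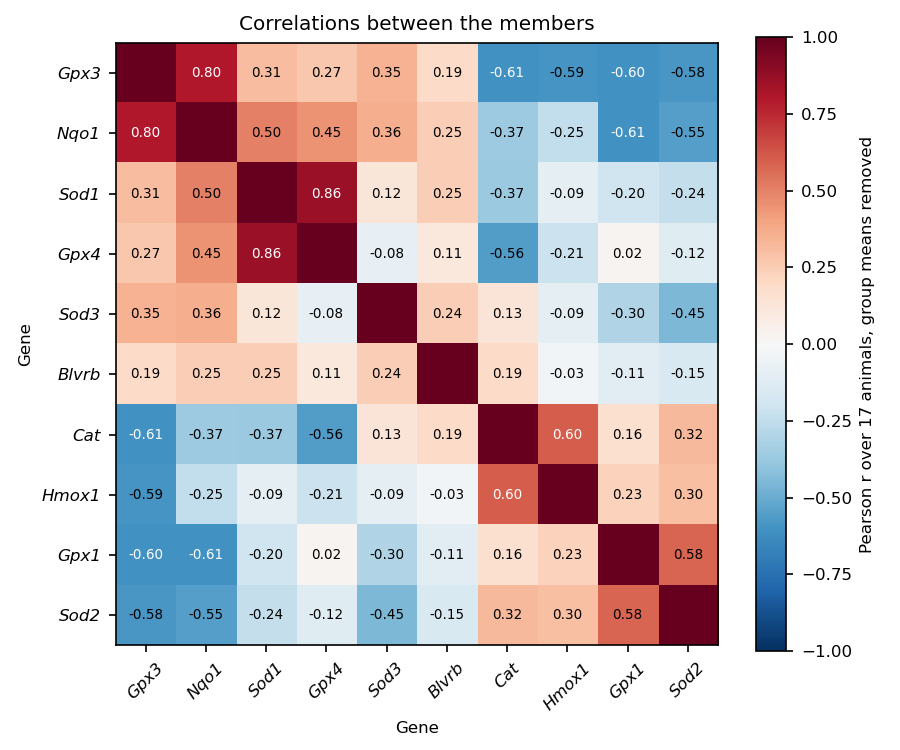
Pearson r for each pair of the 10 genes over 17 animals with group means removed, on a colour scale from -1 to 1. The pairs Sod1 with Gpx4 (0.86) and Gpx3 with Nqo1 (0.80) are the highest, and with all 17 animals no negative r passed after adjustment.

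The genes whose pattern over the 17 animals was most like that of each enzyme were sought among 6475 tested genes with a mean of at least 10 FPKM (6476 for Hmox1, which is itself under that level), by Pearson r with group means removed. For Sod2 they were Prkab1, a subunit of AMP-activated kinase (r = 0.91), Lbp, the lipopolysaccharide binding protein (r = 0.90), and Pla2g2a, a secreted phospholipase (r = 0.90). For Gpx4 they were Ptov1 (r = 0.96), Pdcd5 (r = 0.94) and Znf524 (r = 0.92), and for Sod1 Rp9 (r = 0.94), Siva1 (r = 0.93) and Btf3 (r = 0.93). Gpx3 was closest to Dnaja3 (r = 0.93), a mitochondrial chaperone, Actr1b (r = 0.92) and LOC128094281 (r = 0.91). Nqo1 was closest to LOC128123336 (r = 0.91), Hagh, a glyoxalase (r = 0.90), and Cdc16 (r = 0.87).

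Gpx1 was closest to LOC128114348 (r = 0.86), LOC128114351 (r = 0.86) and Fzr1 (r = 0.85). Hmox1 was closest to Dlgap4 (r = 0.84), Cln8 (r = 0.83) and the surfactant gene Sftpc (r = 0.83), and Blvrb to LOC128122322 (r = 0.84), Tbx3 (r = 0.81) and Syde1 (r = 0.80). The likeness was weaker for Sod3, with LOC128111267 (r = 0.78), Pgm5 (r = 0.77) and Ogn, a matrix proteoglycan (r = 0.77), and for Cat, with Atp13a2 (r = 0.74), Napsa, a protease of alveolar type 2 cells (r = 0.74), and LOC128118708 (r = 0.74). These are the highest of 6475 or 6476 values from the same 17 libraries and are a description only.

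Further genes of the antioxidant system were taken from 12 lists, on glutathione, thioredoxin and peroxiredoxin enzymes, NRF2 and its regulators, haem and iron, quinone reduction, copper supply, selenoprotein synthesis, oxidant sources and peroxisomes. Of 163 genes listed, 135 were in the table and 112 were tested, and 0 were called by limma in any comparison. Prdx6, Slc7a11 and Txnip were among those listed but not tested here, since lengths needed for them were not solved. At an unadjusted p under 0.05, 5 were higher and 0 lower in bond-disrupted than in bonded lungs (4.46%, all genes 6.02%). Between virgin and bonded lungs 0 were higher and 2 lower (1.79%, all genes 3.65%), and between virgin and bond-disrupted lungs 0 were higher and 6 lower (5.36%, all genes 4.26%). The median log2 difference over the 112 genes was 0.04, 0.00 and -0.05 in this order.

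The gene with the smallest p of each list is given with its values. Mgst3, a microsomal glutathione transferase, had 123 ± 12.04 FPKM in virgin and 166 ± 29.8 in bond-disrupted animals (SD), a log2 difference of -0.41 (limma adjusted p = 0.943). Pgd, an NADPH-forming enzyme of the pentose phosphate pathway, differed by -0.33 and Flvcr1, a haem exporter, by -0.28 in the same comparison, as did Abcd3, a peroxisomal transporter, by -0.25 and Prdx1, a cytosolic peroxiredoxin, by -0.21 (limma adjusted p = 0.943 for each). None of these passed the threshold.

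Between bond-disrupted and bonded animals, Secisbp2l, related to a factor of selenocysteine insertion, had a log2 difference of 0.32 (SE 0.11, limma adjusted p = 0.789), Txnrd1, the cytosolic thioredoxin reductase, of 0.18 (limma adjusted p = 0.789) and Cul3, a ubiquitin ligase subunit that keeps NRF2 low, of 0.14 (limma adjusted p = 0.825). Xdh, which encodes xanthine dehydrogenase, had 26.7 ± 21.0 FPKM in bond-disrupted and 16.0 ± 1.61 in bonded animals, a log2 difference of 0.46 (limma adjusted p = 0.866). Aldh2, a mitochondrial aldehyde dehydrogenase, had one of 0.20 (limma adjusted p = 0.867). Between virgin and bonded animals, Atox1, a copper chaperone, had a log2 difference of -0.24 and Gpx7, a glutathione peroxidase of the secretory pathway, of -0.19, each with a limma adjusted p of 1.0.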

How the data were processed

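Lung RNA was sequenced with 1 library per animal, and the submitters' processing notes name FastQC, Trim Galore 0.4.5, STAR 2.7.2, SAMtools 1.5 and featureCounts of Subread 1.5.3. The authors deposited FPKM for 27786 genes in 17 animals, with 0 columns left over. All gene names match RefSeq symbols of assembly ASM782708v3, whose coordinates and sequences were not used here.

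Depths and 26121 of 27787 lengths were solved as those that turn low FPKM into whole fragments, and 99.09% of 147324 values under 250 fragments lay within 0.03 of a whole step. For 23004 genes all 17 values were recomputed with the gene's own length, and the median SD of log2 FPKM between animals went from 1.43 to 0.18 over 10833 genes with a mean of at least 200 fragments.

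Genes at 1 FPKM or more in at least 1 animal were tested with limma 3.58.1 in R 4.3.3 on log2(FPKM + 1), two-sided, with Benjamini-Hochberg adjustment over all genes of a comparison. Fold changes on this scale understate those of low genes. Permutations numbered 100000 for correlations, and exact tests enumerated all regroupings. Both the solving of lengths and the limma step were run on simulated data, with an outcome not reported here. The simulation used the same row rule, the lengths and depths solved here and the same spread for all genes. It therefore cannot check that rule, and it leaves out the wide spread of genes such as Sod2. Same-numbered animals are relatives in the study; in 7 of 16 such pairs the deviations from the group mean had r above 0.1 (mean r 0.06), among them 5 of the 6 that join bonded and bond-disrupted siblings (r from 0.04 to 0.43). The number entered as a block only as an alternative, so the main fit and the exact tests between groups do not take these family ties into account.

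All 10 members were named, as were the 3 genes most like each, the gene with the smallest p of each list, and the highest markers. Members and lists were chosen with earlier results of these data known. P-values measure the spread between these related animals.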

Additional observations from a re-analysis of the deposited data

Results flagged for a closer look

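Each of the 30 sets of values (10 genes in 3 groups) was checked for an animal far from the others of its group, by the gap to its nearest neighbour over the range of the group (limit 0.625 for 6 animals). Chance flags about 1 in 20 sets, or 1.5 of 30, and 4 were found. Sod2 in B3 was 80.2 FPKM, above the other bonded animals at 30.5 to 48.9 FPKM (gap over range 0.631). Sod3 in B3 was 19.3 FPKM, below the others at 42.5 to 52.6 FPKM (0.695). Gpx3 in BD2 was 1524 FPKM, above the other bond-disrupted animals at 735 to 1025 FPKM (0.632). Gpx4 in BD1 was 216 FPKM, above the others at 143 to 169.7 FPKM (0.632). B3 thus stands apart in both dismutases, and 3 of the 4 gaps are just past the limit.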

How the results depend on the processing

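With own lengths, 0 of 10 members were called under every alternative run, and the lowest adjusted p of a member was 0.586. A sign other than that reported stood in 62 of 840 member values under alternatives, 19 of them as deposited, and none was called. As deposited, 40, 113 and 35 genes were called in bond-disrupted minus bonded, virgin minus bonded and virgin minus bond-disrupted, 3 and 4 members had an unadjusted p under 0.05 in the first and second, 7 of 9 neighbours in level were not separated (2 with own lengths), and 0 of 45 correlations passed (2 with own lengths). Without the limit on the fold change, 1 gene was called in virgin minus bonded. The 1 member under an unadjusted p of 0.05 in bond-disrupted minus bonded became 0 with a pseudocount of 0.1, with no filter, with the additive fit of the diagonal and with voom on recovered fragments, and the unadjusted limma p of Cat ran from 0.0272 to 0.133 when each animal was left out; without B3 the member is Sod3, not Cat. Leaving out 1 animal gave 0 to 1 genes called in each comparison (1 without B4, B4 and BD6), 0 to 1 members under an unadjusted p of 0.05 in each (in virgin minus bonded Sod3 without B3, beside 4.21% of all genes, and in virgin minus bond-disrupted Sod2 without BD5 or V4 and Blvrb without BD6, beside 3.66%, 5.04% and 4.72%), and 1 to 4 correlations passing (4 without B5, 2 of them negative, 3 without BD1, 1 of them negative, and 1 without V2 or V3). With the animal number as a replicate block, members under an unadjusted p of 0.05 were 1, 0 and 1, the last being Sod2, beside 5.75%, 3.86% and 3.86% of all genes, and 0 genes were called; 7 of 17 animals correlated best with a relative of their own number, each having 1 or 2 such relatives among the 11 or 12 animals of the other groups. The order of the 10 genes by mean level was kept in 11 of 17 fits with an animal left out. The split of genes at an unadjusted p under 0.05 in bond-disrupted minus bonded was 421 higher and 451 lower with FPKM and 206 and 844 with voom. The causes of these shifts were not tested. Hmox1 rests on 156 to 391 fragments, a counting error of 5.06 to 8.01% beside a coefficient of variation between animals of 16.2%.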
